A study of Mus musculus with 4 samples.

Results

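Spinous keratinocytes are the suprabasal cells of the epidermis that have left the basal layer and carry the keratins Krt1 and Krt10. Here they were chosen barcode by barcode from 4 single-cell libraries of mouse epidermis, and 12909 of 109216 barcodes qualified. A barcode needed 2000 or more gene UMIs (unique molecular identifiers, 1 per captured transcript; 3000 at 1 week), 15% or fewer mitochondrial UMIs, and Krt1+Krt10 of 20 or more UMIs per 10000 and at least 2 times Krt5+Krt14. Barcodes of neighbouring cell states were kept out by Flg+Flg2 below 10 per 10000, Krt79 below 2 UMIs, Krt8 below 10 per 10000 and Slpi below 10 per 10000. At 1 day the rule kept 5967 control and 5733 ablated barcodes, and at 1 week 1032 control and 177 ablated barcodes.

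The controls were DNp63fl/fl mice, which carry the floxed allele without a Cre driver. The ablated mice were DNp63fl/fl;K14-CreT2, in which the Krt14 promoter directs the tamoxifen-activated recombinase to basal keratinocytes, so spinous cells lose the gene only by descent from basal cells or by Cre made before they left that layer. Mice of both genotypes received 200 mg/kg of tamoxifen by oral gavage once a day, were 2 to 17 months old, and were sampled 1 day or 1 week after ablation. Back skin epidermis was freed with trypsin, and the sources used here do not say how many animals went into a library or which of the cold and warm trypsin protocols each had. With 1 library per group, the differences reported have no replicate check, and an effect of the deletion cannot be told apart from that of Cre itself, from a difference between animals or from library preparation. The 1-day libraries read the 3′ end of transcripts and the 1-week libraries the 5′ end, so comparisons stayed within a time point.

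As background, ΔNp63 is the p63 isoform of the basal layer of stratified epithelia, where it maintains the proliferative compartment and keratin 5 and 14 expression. On entry to the spinous layer, cells exchange keratins 5 and 14 for keratins 1 and 10, and Notch signalling and transcription factors such as Klf4 and Grhl3 promote differentiation. Spinous cells become granular cells, which make filaggrin, loricrin, small proline-rich proteins, kallikrein proteases and barrier lipids.

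Of the barcodes that passed the UMI and mitochondrial limits, spinous cells at 1 day made up 23.0% (95% Clopper-Pearson interval 22.5 to 23.5) of 25939 for controls and 21.7% (21.2 to 22.2) of 26450 for ablated mice. At 1 week they made up 12.2% (11.5 to 12.9) of 8488 and 4.34% (3.73 to 5.01) of 4083. The limits on other states removed unequal numbers of cells. Of the 7315, 10402, 1186 and 380 barcodes led by Krt1 and Krt10 in the 4 libraries (1-day control, 1-day ablated, 1-week control and 1-week ablated, an order kept below), the rule kept 81.6%, 55.1%, 87.0% and 46.6%. The Krt8 or Slpi limit was passed by 6 and 2170 of these barcodes at 1 day and by 2 and 73 at 1 week. Without the limits on Krt8 and Slpi the 1-day shares were 23.0% (control) and 28.1% (ablated), and without the filaggrin limit 23.8% and 24.1%, a difference of 5.08 points (4.34 to 5.83) in the first case and of 0.281 points (-0.449 to 1.01) in the second. The order of the 1-day shares was thus reversed without the Krt8 and Slpi limits, and without the filaggrin limit the interval included 0. These intervals cover counting error only, since barcodes of 1 library are not replicates, and say nothing on the spread between animals or preparations. The ablated share at 1 week lay below the control share under every version of the rule tried. Few cells sat at the thresholds: Krt1+Krt10 was below 25 per 10000 in 6, 25, 2 and 1 members and the keratin ratio below 2.5 in 252, 405, 57 and 6. Flg+Flg2 lay between 7.5 and 10 in 45, 118, 1 and 4 members, against 27, 71, 1 and 4 otherwise eligible barcodes between 10 and 12.5.

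The label was checked against genes the rule did not read. Krtdap, Sbsn and Dmkn, secreted products of differentiating keratinocytes, were detected at a high level in the median member of every library: Krtdap at 78.3, 69.0, 81.7 and 58.2 UMIs per 10000, Sbsn at 49.6, 106, 55.7 and 151, and Dmkn at 51.8, 74.6, 45.2 and 72.3. Granular cells hold these transcripts too (Dmkn at 12378 and 14256 CPM at 1 week, against 5306 and 7539 in the spinous cells), so they place the members among differentiating keratinocytes and do not separate spinous from granular cells. At 1 week ablated members held Asprv1 at 6459 CPM, against 5205 in the 24 control granular cells. Crct1, at 1856 against 9910, and Cnfn, at 465 against 3755, were below the granular level. Whether ablated members are nearer to granular cells was not tested. The defining Merkel cell genes were near 0, with a summed level of 0.0967 and 0.195 UMIs per 1000000 gene UMIs of the members (CPM) at 1 day and 0.198 and 0 at 1 week. T cell genes summed to 27.7 and 43.8 CPM at 1 day and 11.9 and 12.3 at 1 week. Trbc2, a T cell receptor constant gene that is not in that list, was at 107 and 21.9 CPM at 1 day and at 81.6 and 6.17 at 1 week, with a UMI in 49.0%, 8.97%, 55.7% and 2.26% of members. It was thus common in control members and lower in ablated ones, unlike the sum of the listed genes. Single genes went both ways at 1 week, with Cd3e at 3.64 and 0.772 CPM and the leukocyte gene Cd52 at 3.17 and 6.95. Langerhans cell genes, which encode class II antigen presentation and surface receptors of these immune cells, stood higher, at 282 and 676 CPM at 1 day and 234 and 1243 at 1 week. In the ablated 1-week library 1 barcode held 866 of the 869 UMIs of the smooth muscle list, so the values of Myh11, Acta2 and Des there come from 1 cell. Members with 3 or more UMIs from other lineages made up 9.65%, 14.0%, 10.3% and 9.04%, and their part in the other results was not tested beyond leaving them out.

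Members held 51694759, 30792742, 15119429 and 2591324 gene UMIs in all, with medians of 7045, 4411, 11693 and 12855 per cell, out of library totals of 179736563, 144323031, 88903603 and 68191870. The labels give equal numbers of males and females, but the 1-day members had 0 Xist UMIs in both libraries and 8918 and 5786 Y-linked UMIs. All 1-day barcodes within the UMI and mitochondrial limits held 5 and 5 Xist UMIs against 28349 and 23491 Y-linked ones. The 1-day libraries thus read as male, unlike the 1-week libraries, so results at both times come from unlike sex makeup. At 1 week, 530 control and 29 ablated members had Y-linked and no Xist UMIs, and 341 and 123 had Xist and no Y-linked UMIs. The 1-week comparison was therefore also made within each sex. The 1-day libraries shared 8 member barcode sequences, 1 was shared between the ablated 1-day and control 1-week libraries, and 0 between the other pairs. To gauge RNA free in the suspension, the same genes were read in barcodes with T cell markers (586, 111, 248 and 120 barcodes, median UMIs 1212, 1616, 1785 and 1712), a cell type that should lack keratinocyte transcripts. These barcodes were chosen by any 3 of 7 markers, of which Ptprc and Cd52 also mark other leukocytes. They held 500 or more UMIs but fewer than the minimum of a member (2000, or 3000 at 1 week). Being smaller than members, they can overstate free RNA in CPM or at equal depth. A member level at or below theirs thus does not show that its UMIs are free RNA. For genes that leukocytes make themselves, such as Fos and Cd74, the level in these barcodes does not gauge free RNA.

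Trp63, the targeted gene (ENSMUSG00000022510), was lower in the ablated spinous cells at both times. Its summed level at 1 day was 301 CPM (95% Poisson interval 297 to 306) in control and 73.5 (70.5 to 76.5) in ablated cells, and at 1 week 225 (217 to 232) and 27.8 (21.7 to 35.0). The log2 ratio of ablated to control was -2.04 (-2.10 to -1.97) at 1 day and -3.02 (-3.37 to -2.68) at 1 week. In cells with Krt1 below 20 UMIs per 10000, which were 154 of the 177 ablated cells at 1 week, it was -1.60 (-1.72 to -1.48) and -1.82 (-2.28 to -1.38). Krt1 was read by the rule and itself differed between the groups, so values given by Krt1 level, here and below, describe unlike sets of cells and support no statement on their own. A Trp63 UMI was found in 80.1%, 22.9%, 82.2% and 22.6% of members, and in 26.1%, 6.56%, 21.9% and 2.68% after each cell was thinned to 1000 UMIs. The T cell barcodes with 1000 or more UMIs (441, 111, 217 and 120), thinned the same way, gave 5.80%, 8.47%, 3.36% and 0.959%. At 1 day the ablated spinous share was below that of the T cell barcodes, whose level of 110 CPM exceeded the 73.5 in spinous cells. As these barcodes are smaller than members, this does not show that the Trp63 UMIs of ablated spinous cells are free RNA. The counts cover the whole gene, do not separate ΔN from other isoforms, and the sources used here do not state where the floxed exon lies relative to the sequenced ends. In basal cells, chosen by the opposite keratin ratio, the log2 ratio was -1.27 at 1 day and -1.23 at 1 week. The difference between layers was not tested.

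**Figure D1:**
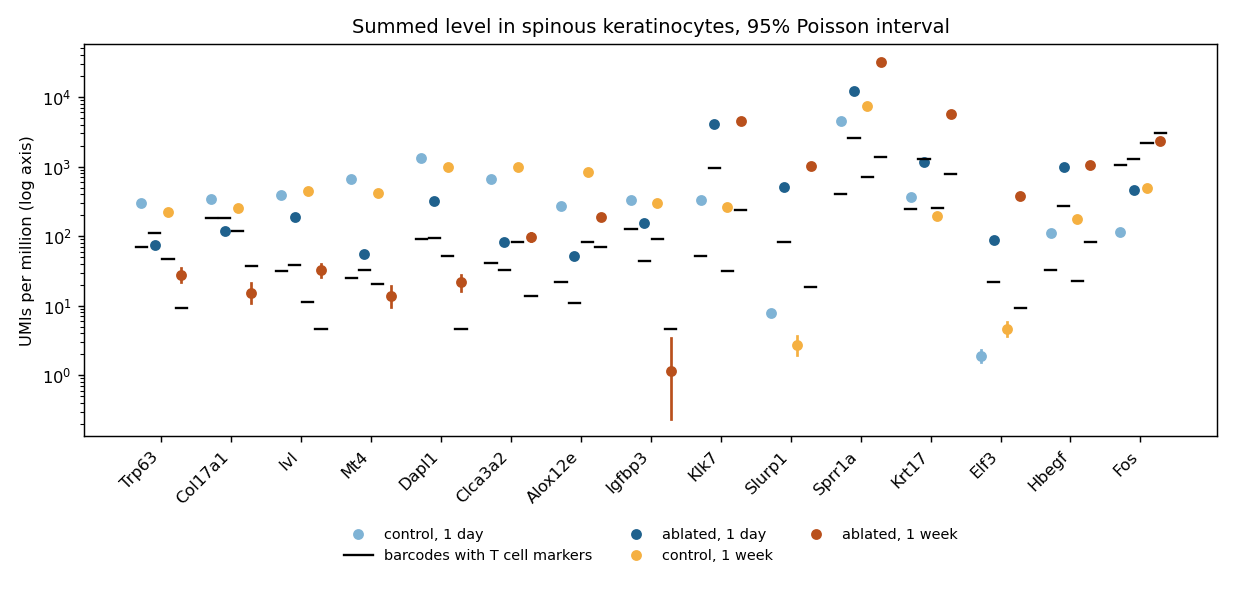
Summed CPM (log axis) of 15 genes in the spinous cells of each of the 4 libraries, with 95% Poisson intervals as thin lines and the level in barcodes with T cell markers as black bars. Trp63, Mt4 and Dapl1 lie lower in the ablated library at both times and Klk7, Slurp1 and Elf3 higher, while Fos in the spinous cells stays below its T cell bar in every library.

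The keratins that define the layer did not move together. Krt1 and Krt10 chose the cells, so their levels are given as a description. Krt1 in the median member was at 52.5 (control) and 18.7 (ablated) UMIs per 10000 at 1 day and at 76.2 and 1.11 at 1 week, whereas Krt10 was at 141, 105, 137 and 111. Krt1 of 20 or more per 10000 was found in 87.6%, 47.6%, 90.1% and 13.0% of members, so that in the ablated 1-week library 23 cells lay above this value and 154 below it. Krt10 was therefore the keratin by which most ablated cells at 1 week entered the rule.

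Krt77, a further keratin of suprabasal epidermis, was not used by the rule. At 1 day its median was 34.8 per 10000 in control and 70.3 in ablated cells, and at 1 week it was 35.3 and 68.4. Its summed level was almost equal, at 8920 and 8692 CPM at 1 day and 7960 and 7387 at 1 week. Control cells were spread more widely: their quartiles were 11.1 and 112 per 10000 at 1 day against 40.6 and 110 in ablated cells. Control cells thus held a minority rich in Krt77, and ablated cells a more even level.

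Krt16 and Krt17 had higher summed levels in the ablated cells at both times. Krt16, made in the suprabasal layers of injured and inflamed epidermis, stood at 981 and 3055 CPM at 1 day and at 614 and 4091 at 1 week, log2 ratios of 1.64 and 2.74. Krt17, a keratin of follicles and of injured epidermis, stood at 370 and 1162 at 1 day and at 196 and 5688 at 1 week, log2 ratios of 1.65 and 4.86. At 1 day the Krt17 level in the T cell barcodes of the ablated library was 1274, as high as in the spinous cells, and at 1 week it was 777, far below them. In low-Krt1 cells at 1 day the log2 ratio of Krt17 was 0.63, within 2-fold. Krt17 of 20 or more per 10000 marked 3.13%, 15.3%, 2.42% and 54.8% of members. In the ablated 1-week library it marked 69.6% of the cells with high Krt1 and 52.6% of those with low Krt1. Krt17 is also a follicle gene, and the list of upper follicle and duct genes summed to 1121 and 1927 CPM at 1 day and 812 and 6505 at 1 week, sums that include Krt17 itself (5688 of the 6505). Of the 5 listed genes tested at 1 week, 3 were higher and 1 lower (median log2 2.36), against 8.16% and 8.22% of all genes. Defb6, another follicle gene of this list, was at 104 and 535 CPM, with a UMI in 25.3% and 70.6% of members. T cell barcodes of the ablated library held 78.1 CPM of Defb6. Its log2 ratio was 0.40 in high-Krt1 and 1.65 in low-Krt1 cells. An interfollicular origin of the spinous cells was not tested.

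**Figure D2:**
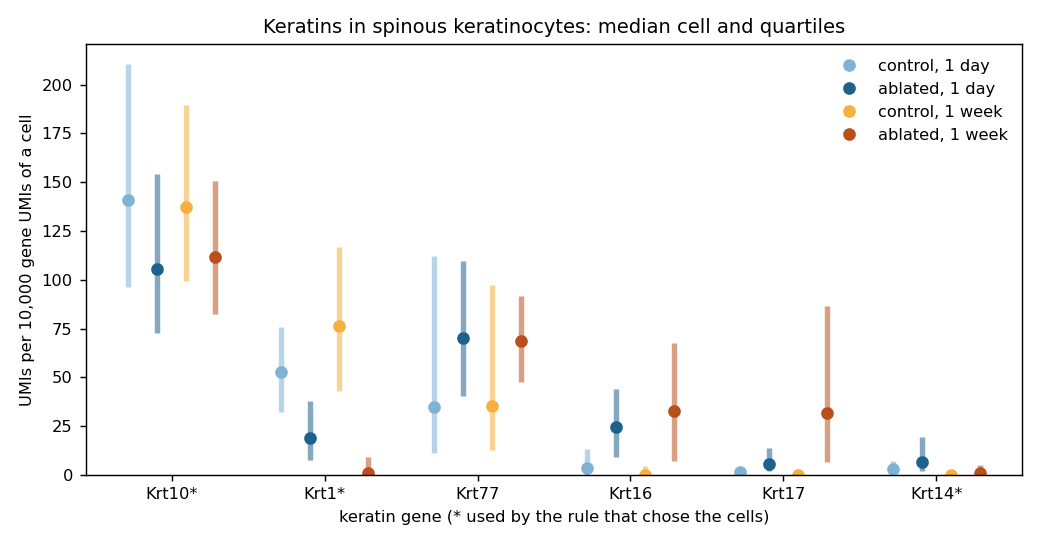
UMIs per 10000 gene UMIs of a cell (y) for 6 keratins (x) in spinous cells of the 4 libraries, with the median cell as a point and the quartiles as a bar. Krt1 is low in the ablated cells, Krt10 lies at 105 and 111 in ablated against 141 and 137 in control cells, and Krt16 and Krt17 are high in ablated cells at 1 week.

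Across all genes, a gene was tested when it reached 20 CPM and 30 UMIs in 1 of the libraries compared, and it was called when the ratio passed 2-fold and the 95% counting interval of the log2 ratio left out 0. These intervals cover counting error only, and the genes of the rule were left out. A gene could enter through 1 library alone, the one where it was high, so its entry and its ratio are linked. At 1 day 304 of 5098 genes were called higher (5.96%) and 109 lower (2.14%) in the ablated cells. At 1 week 458 of 5610 were higher (8.16%) and 461 lower (8.22%). Of the 4821 genes tested at both times, 278 were called higher at 1 day and 340 at 1 week, with 214 higher at both. Called lower were 98 and 382, with 88 lower at both. Set against all calls, which include genes tested at only 1 time, the 214 were 70.4% at 1 day and 46.7% at 1 week. The 88 were 80.7% and 19.1%. No gene was called in opposite directions (0 of 4821). The split of calls turns on the scaling: with mitochondrial and ribosomal protein genes left out, the higher share of all calls was 59.7% in place of 73.6% at 1 day and 38.5% in place of 49.8% at 1 week. The level of 143 of the 304 and of 287 of the 458 higher genes in ablated spinous cells exceeded that in the T cell barcodes, interval against interval, a count that includes genes leukocytes make themselves.

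**Figure D3:**
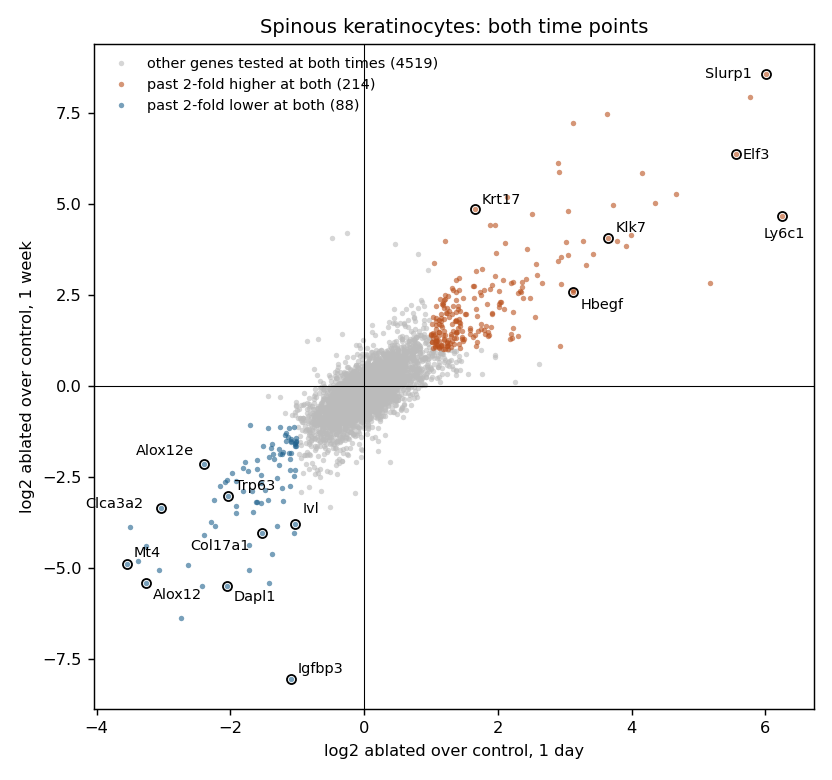
Log2 ratio of ablated to control spinous cells at 1 day (x) and 1 week (y) for the 4821 genes tested at both times. The 214 genes higher at both lie at the upper right and the 88 lower at both at the lower left, and 0 genes were called in opposite directions.

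The 10 genes with the largest ratios higher at both times included Slurp1, Elf3, Elf5 and Ly6c1. These were below 20 CPM in both control libraries and entered through the ablated libraries alone, so entry and rank both come from the ablated cells. Slurp1 (ENSMUSG00000022596), a secreted Ly6 family protein of late keratinocytes, was at 7.97 and 514 CPM at 1 day and at 2.71 and 1027 at 1 week. The log2 ratios were 6.01 (5.87 to 6.15) and 8.57 (8.12 to 9.05), and a Slurp1 UMI was found in 4.46%, 57.9%, 2.52% and 89.8% of members, and in 0.598%, 29.8%, 0.169% and 52.4% at 1000 UMIs a cell. Its log2 ratios were 6.38 with high and 4.85 with low Krt1 at 1 day, and 8.83 and 7.90 at 1 week, where 23 ablated cells had high Krt1. Elf3, an ETS factor of epithelia, was at 1.90 and 89.2 CPM at 1 day and 4.63 and 384 at 1 week. An Elf3 UMI was found in 1.46%, 28.7%, 3.39% and 87.6% of members. At 1000 UMIs a cell the shares in the ablated libraries were 7.75% and 28.5%, against 1.83% and 0.81% of their T cell barcodes. Elf5, a second epithelial ETS factor, was at 1.28 and 26.0 at 1 day and 1.12 and 36.7 at 1 week.

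Ly6c1, a GPI-anchored surface protein, was at 3.08 and 233 CPM at 1 day and 12.2 and 309 at 1 week. Fxyd4, a regulator of the sodium pump, was at 1.51 and 38.1 and at 3.24 and 125. Atp1b1, the pump's beta subunit, was at 6.11 and 97.4 and at 16.9 and 298, and T cell barcodes held more of it in control (252 and 501) as in ablated libraries (198 and 423). Nppb, the precursor of B-type natriuretic peptide, was at 0.561 and 30.4 at 1 day and 0.132 and 32.4 at 1 week, where 97.6% of its UMIs came from 3 cells. T cell barcodes of the ablated libraries held 32.9 and 32.2 CPM of Nppb, as much as the spinous cells. Tnip3, an inhibitor in NF-kB signalling, was at 1.12 and 20 and at 0.529 and 30.5, with 16.5 and 4.6 in T cell barcodes of the ablated libraries. Neu2, a sialidase, was at 1.45 and 22.0 and at 1.46 and 20.8. The ablated levels of Nppb, Tnip3 and Neu2 did not exceed the T cell level at either time, interval against interval, nor did that of Fxyd4 at 1 day. Fxyd4, Atp1b1, Nppb, Tnip3 and Neu2 were also below 20 CPM in both control libraries and entered through the ablated ones.

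At 1 week several genes had no or almost no UMI in the 1032 control cells. Fabp7, a fatty acid carrier, was at 0 and 98.8 CPM, at least 8.96 higher on the log2 scale when the control is set at 3 counts over the group (8.65 at the lower end of the counting interval), and 64.5% of its UMIs came from 3 cells. Atp12a, the non-gastric proton pump, was at 0 and 34.7, at least 7.45 higher (7.12 at the lower end), with 20% from 3 cells. Rptn, the cornified envelope protein repetin, had 1 UMI in control cells and stood at 0.0661 and 58.7, with 59.9% from 3 cells. Slc5a8, a monocarboxylate carrier, stood at 4.56 and 270 at 1 week and at 9.65 and 72.7 at 1 day. The remaining leading genes included Klk6 (0.331 and 58.3) and Krt6b (0.331 and 49.4), of which 43.7% and 68.8% came from 3 cells. At 1 day they included Sprr2e, at 1.45 and 52.4 CPM, and Sprr2i, at 2.55 and 42.3, members of a family of near-identical genes between which reads may be split.

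Most of the terminal differentiation genes tested were higher at both times. Of 39 listed genes 21 were tested at each time, with 12 called higher and 1 called lower at the early time (median log2 1.20) and 17 and 1 at the late time (median 2.74). Over all genes tested the median was 0.00 at 1 day and -0.10 at 1 week. The shares called there were 5.96% higher and 2.14% lower at 1 day, and 8.16% and 8.22% at 1 week. Sprr1a, a small proline-rich cornified envelope precursor, was at 4564 and 12113 CPM at 1 day and at 7348 and 31859 at 1 week. Asprv1, the protease that processes profilaggrin, was at 1361 and 4206 and at 970 and 6459. Sprr2d was at 16.1 and 221 and at 34.2 and 539, and 33.5% of its ablated 1-week UMIs came from 3 cells. Lor, the major cornified envelope protein loricrin, was at 87.2 and 201 at 1 day and 41 and 646 at 1 week. At 1 day the T cell barcodes of the ablated library held 231 CPM of Lor, more than the spinous cells, and 156 at 1 week.

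Involucrin was the exception in this list. Ivl, a scaffold of the cornified envelope that appears in upper spinous cells, was at 390 and 190 CPM at 1 day and at 445 and 32.4 at 1 week, log2 ratios of -1.04 (-1.08 to -0.99) and -3.78 (-4.11 to -3.47). It was lower in cells with high Krt1 (-1.04 and -2.10) and in cells with low Krt1 (-1.90 and -5.29). An Ivl UMI was found in 47.7% and 22.1% of members at 1 day and 42.6% and 10.7% at 1 week, and at 1000 UMIs a cell in 19.8% and 10.4% and in 18.1% and 2.06%. Tgm1, the transglutaminase that crosslinks involucrin, went the other way, at 57.2 and 146 CPM (1 day) and at 113 and 391 CPM (1 week), but was within 2-fold in low-Krt1 cells (0.00 and 0.41).

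The ratio of the terminal genes was also read by Krt1 level, as a description only. Krt1 was used by the rule, and the split falls unequally on the groups. At 1 week 102 of 1032 control and 154 of 177 ablated cells had low Krt1. Among cells with Krt1 below 20 per 10000, which at 1 day were 741 control and 3002 ablated cells, the median of the list was 0.00, against 1.44 among cells with more Krt1. At 1 week the medians were 1.55 in low-Krt1 cells and 2.26 in high-Krt1 cells. In low-Krt1 cells at 1 day Klk7 (log2 2.03) and Slurp1 (4.85) were called higher, while Lor (-0.24), Cnfn (-0.34), Sprr1a (0.93) and Asprv1 (0.43) were within 2-fold. In control cells with low Krt1 Klk7 was at 1085 CPM, against 215 in control cells with high Krt1.

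Of the wound keratins and alarmins, which are induced in injured epidermis, 5 of 9 tested genes were higher and 1 lower at 1 day (median 1.18), and 6 of 8 were higher and 1 lower at 1 week (median 2.52). The medians were 1.47 and 2.81 in high-Krt1 cells and 0.63 and 2.13 in low-Krt1 cells. Among all genes tested, 5.96% were higher and 2.14% lower at 1 day, and 8.16% and 8.22% at 1 week. Krt6a, a partner of Krt16, was at 144 and 592 CPM at 1 day and at 21.7 and 107 at 1 week, where T cell barcodes of the ablated library held 294. Above the T cell level stood 4 of the 5 and 4 of the 6. The lower genes were Fabp5, a fatty acid carrier, at 2389 and 1180 at 1 day but within 2-fold with high or low Krt1 (-0.99 and -0.77), and Gjb2, a gap junction connexin, at 101 and 35.9 at 1 week.

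**Figure D4:**
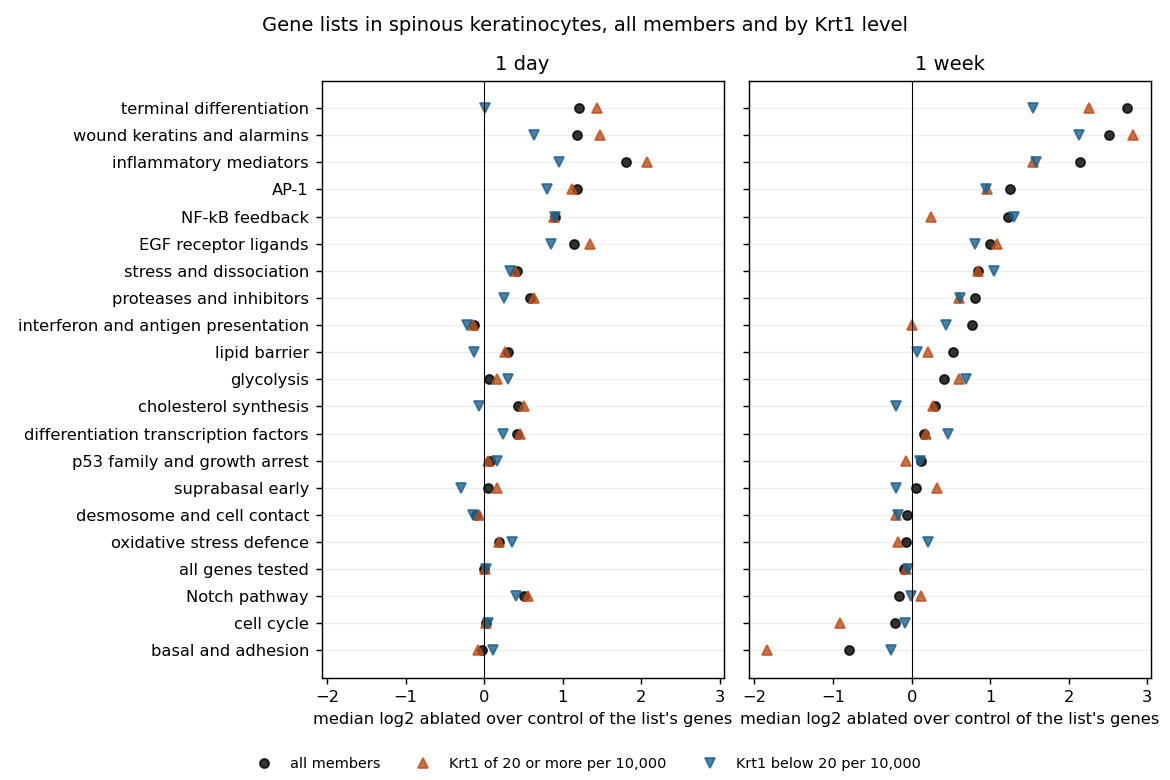
Median log2 ratio of ablated to control spinous cells (x) of the tested genes of 20 lists and of all genes tested (y), at 1 day and 1 week, for all members and for members with Krt1 above and below 20 per 10000. Terminal differentiation genes have medians of 1.20 and 2.74 in all members, and 0.00 and 1.55 in members with low Krt1. The Krt1 split compares unlike sets of cells.

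Sbsn, Krtdap and Dsp, products of early suprabasal cells and of their junctions, stayed within 2-fold at both times in summed CPM. Of 16 suprabasal genes tested at each time, 2 were higher and 2 lower at 1 day and 4 and 3 at 1 week, with medians of 0.05 and 0.06. The medians were 0.16 and 0.32 in high-Krt1 cells and -0.29 and -0.19 in low-Krt1 cells. Sbsn was at 7719 and 11425 CPM at 1 day and 9000 and 15972 at 1 week, and Krtdap at 9544 and 8101 and at 9446 and 5838. Unlike its sum, the median member's Sbsn, given above, was more than 2-fold higher in ablated cells at both times. Of 21 desmosome and cell contact genes, 1 was higher and 0 were lower at 1 day, while 1 was higher and 2 were lower at 1 week. Called in neither direction were 12 and 9 of the 16 suprabasal genes and 20 and 18 of the 21 contact genes, against 4685 of 5098 and 4691 of 5610 of all genes tested. The higher one was Cldn4, a tight junction claudin, at 104 and 527 CPM at 1 day and 1043 and 6322 at 1 week. Dsp, the desmosomal plaque protein desmoplakin, was at 2987 and 2372 and at 6754 and 5187.

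Col17a1 and Dst, both of the hemidesmosome, were the basal adhesion genes beside Trp63 that were lower at both times over all members. Over all genes tested, 5.96% were higher and 2.14% lower at 1 day, and 8.16% and 8.22% at 1 week. Of 17 basal adhesion genes tested at 1 day 1 was higher and 3 lower (median -0.03), and of 18 tested at 1 week 1 was higher and 8 lower (median -0.80). The 1-week median was -1.84 in high-Krt1 cells and -0.26 in low-Krt1 cells, which were 154 of the 177 ablated cells. Trp63, described above, is a member of this list. Col17a1, a collagen of the hemidesmosome that anchors basal cells, was at 340 and 118 CPM at 1 day and 255 and 15.4 at 1 week. Dst, a plakin of the same structure, was at 184 and 85.2 and at 272 and 40.9, but its log2 ratios in low-Krt1 cells, -0.39 and -0.65, were within 2-fold. Itga6, the hemidesmosome's alpha integrin subunit, stayed within 2-fold, at 160 and 262 and at 149 and 127. T cell barcodes of the ablated 1-day library held 181 CPM of Col17a1 and 220 of Dst, more than the ablated spinous cells.

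Among differentiation transcription factors, 7 of 28 were higher and 0 lower at 1 day and 9 and 0 at 1 week, with medians of 0.42 and 0.15. For all genes tested the shares were 5.96% higher and 2.14% lower at 1 day, and 8.16% and 8.22% at 1 week. Prdm1, a repressor that takes part in terminal differentiation, was at 62.2 and 323 CPM at 1 day and 77.8 and 418 at 1 week. Ehf, an ETS factor, was at 303 and 638 and at 123 and 570, and Barx2, a homeobox factor, at 10.3 and 26.7 and at 17.9 and 107. Ehf (0.70) and Barx2 (0.64) were within 2-fold in low-Krt1 cells at 1 day. Grhl3, a barrier factor, was at 58.6 and 144 at 1 day and at 237 and 468 at 1 week, where its log2 ratio of 0.98 fell short of 2-fold. Klf4 (log2 -0.44 and -0.02) and Gata3 (-0.61 and -0.34), further regulators of the barrier programme, stayed within 2-fold. Of the Notch pathway, 2 of 8 tested genes were higher at 1 day and 0 lower, and 0 of 7 were higher and 2 lower at 1 week. These few genes stand beside the same all-gene shares. Jag1, a ligand, was one of these at 32.3 and 13.5 CPM, but its ratio had the other sign in high-Krt1 cells (0.10).

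Kallikreins are serine proteases that degrade corneodesmosomes, and 6 of them were higher at both times. In the list of proteases and inhibitors, 8 of 20 genes were higher and 1 lower at 1 day (median 0.58), and 8 were higher and 2 lower at 1 week (median 0.81). All genes tested gave 5.96% higher and 2.14% lower at 1 day, and 8.16% and 8.22% at 1 week. Klk7 (ENSMUSG00000030713) was at 329 and 4118 CPM at 1 day and 266 and 4488 at 1 week, log2 ratios of 3.64 (3.62 to 3.67) and 4.08 (4.03 to 4.13). A Klk7 UMI was found in 31.7%, 96.6%, 19.8% and 98.3% of members, and in 13.2%, 88.7%, 8.12% and 93.5% at 1000 UMIs a cell. The T cell barcodes gave 4.56%, 37.4%, 1.82% and 12% at that depth, and the ablated 1-day T cell level was 950 CPM. The 3 richest cells held 6.68% of the ablated Klk7 UMIs at 1 week. The ratio of Klk7 in granular cells was 0.38 at 1 day and 0.78 at 1 week, from control levels of 3818 and 3793 CPM that are close to those of ablated spinous cells. Klk5, Klk6, Klk8, Klk9 and Klk10 were also higher at both times. Klk5 was at 121 and 445 at 1 day and 169 and 1068 at 1 week. In low-Krt1 cells Klk5 (0.61) and Klk8 (0.46) were within 2-fold at 1 day and Klk8 (0.98) and Klk9 (0.96, and 0.81 with high Krt1) at 1 week, and the levels of Klk6 and Klk10 did not exceed the T cell level at either time. Spink5, which encodes an inhibitor of these proteases, was at 1058 and 1764 at 1 day and at 985 and 3602 at 1 week, past 2-fold at 1 week but not in low-Krt1 cells (0.77). Cst6, a cystatin that inhibits cysteine proteases, was at 900 and 609 at 1 day and 474 and 136 at 1 week, called lower at 1 week but not in high-Krt1 cells (-0.92).

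Alox12b was higher and the related Alox12e and Alox12 lower at both times. Of 21 lipid barrier genes tested at 1 day 4 were higher and 2 lower (median 0.30), and of 23 at 1 week 5 and 2 (median 0.53), beside 5.96% higher and 2.14% lower of all genes at 1 day and 8.16% and 8.22% at 1 week. Alox12b, the lipoxygenase that acts on ceramide-bound linoleate in barrier formation, stood at 49.8 and 194 CPM at the early and 42.0 and 527 CPM at the late time, with a 1-day log2 ratio of 0.88 in low-Krt1 cells. Alox12e was at 273 and 51.9 and at 834 and 191. Alox12 was at 25.9 and 2.70 at 1 day and at 48.7 and 1.16 at 1 week, the last from 3 UMIs.

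Tslp, Il18, Il1f9, Il1f5 and Il1rn were higher at both times. Of the inflammatory mediators 5 of 8 tested were higher and 0 lower at 1 day (median 1.81), and 7 of 10 and 0 at 1 week (median 2.14). The list held 33 genes, and the others were not tested. A gene could enter through the ablated library alone, as Tslp did, so these counts describe only the genes that entered. Of chemokines not tested at 1 week, Ccl2 was at 14.6 and 0.386 CPM, Ccl7 at 13.8 and 0 and Cxcl2 at 0.463 and 2.32. The share higher over all genes tested was 5.96% at 1 day and 8.16% at 1 week. Tslp, a cytokine of barrier-disrupted epidermis that acts on dendritic and type 2 immune cells, was at 12.1 and 130 CPM at 1 day and 8.07 and 99.9 at 1 week. At 1 week 75.7% of its UMIs came from 3 cells, and a Tslp UMI was found in 22.6% of ablated members against 10.4% of controls, or 3.43% against 1.02% at 1000 UMIs a cell and 3.97% in T cell barcodes of the ablated library. Il1f9, an interleukin 36 cytokine, was at 20.4 and 89.9 and at 2.84 and 103. Il1f5 and Il1rn, antagonists of interleukin 36 and interleukin 1 signalling, were higher too, at 39.4 and 137 and at 37.5 and 234 for Il1f5 and at 118 and 415 and at 171 and 534 for Il1rn. In low-Krt1 cells Il1f9 (0.99) and Il1f5 (0.47) were within 2-fold at 1 day and Il1rn (0.92) at 1 week. At 1000 UMIs a cell an Il18 UMI was found in 2.16% of ablated members at 1 day and 2.91% at 1 week. The T cell barcodes of these libraries gave 2.52% and 0.53%.

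Of the ligands and regulators of the EGF receptor, which drives keratinocyte growth and migration, 6 of 10 were higher at 1 day and 5 of 10 at 1 week, and 0 were lower. Over all genes tested 5.96% and 8.16% were higher. The T cell level was exceeded by 3 of the 6 and 4 of the 5. Ereg, Hbegf, Tgfa and Epgn, all ligands, were higher at both times over all members. In low-Krt1 cells the log2 ratio of Ereg was -0.39 (-0.49 to -0.28) at 1 day and 0.11 (-0.07 to 0.30) at 1 week, so its call was lost and its 1-day direction turned. In high-Krt1 cells at 1 week that of Tgfa was 0.07 (-1.83 to 1.46). Hbegf was at 113 and 982 CPM at 1 day and 174 and 1038 at 1 week, and in T cell barcodes of the ablated libraries at 274 and 82.7. A Hbegf UMI was found in 39.2%, 81.8%, 61.8% and 93.2% of members, and in 9.25%, 49.7%, 13.5% and 52.8% at 1000 UMIs a cell. Epgn was at 50.0 and 405 and at 24.6 and 380. Areg was at 65.2 and 400 at 1 day and 180 and 276 at 1 week, while T cell barcodes held 2677 and 1488 CPM at 1 day and 2054 and 1365 at 1 week.

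Fos and Nfkbiz were higher in ablated spinous cells at both times. Of 9 AP-1 genes, which encode Jun and Fos family factors, 6 were higher at 1 day and 7 at 1 week, and 0 lower. Fos was at 116 and 467 CPM at 1 day and 484 and 2309 at 1 week, while T cell barcodes, which make this gene, held 1046 and 1290 and 2180 and 3074. NF-kB feedback genes were higher in 4 of 12 at 1 day and 8 of 13 at 1 week, with Nfkbiz at 159 and 333 and at 117 and 375. The T cell level was exceeded by 0 of these 4 and 4 of these 8. Of the higher AP-1 genes it was exceeded by 0 of 6 and 3 of 7. Of 19 genes known to respond to tissue dissociation and heat stress, 5 and 9 were higher and 0 lower, against 5.96% and 8.16% of all genes tested. The trypsin protocol of each library is not stated, and its part in these values was not tested.

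Class II antigen presentation genes were higher as sums, which at 1 week rested on few cells. Cd74, the invariant chain, was at 84.0 and 217 CPM at 1 day and 101 and 526 at 1 week, and H2-Aa at 47.8 and 110 and at 36.0 and 206. At 1 week 3 cells held 64.3% of the Cd74 and 67.2% of the H2-Aa UMIs of ablated members. A Cd74 UMI was found in 16.3%, 19.5%, 11.2% and 11.9% of members, and in 3.50%, 7.30%, 2.65% and 4.08% at 1000 UMIs a cell. The T cell barcodes gave 11.1%, 20.3%, 13.1% and 11.0% at that depth, above the spinous share in every library, and may include Langerhans cells. H2-Aa was within 2-fold in high-Krt1 cells at 1 day (0.94). In high-Krt1 cells at 1 week both genes had negative log2 ratios, -4.56 and -3.08. All 6 Langerhans genes tested were higher at both times, against 5.96% of all genes tested at 1 day and 8.16% at 1 week. The T cell level was exceeded by 0 of the 6 at 1 day and by 5 of the 6 at 1 week. Their median log2 ratio in basal cells was -0.006 at 1 day and -0.39 at 1 week. The part of Langerhans cells in this result was not tested.

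The 10 genes most reduced at both times included Mt4, Hpgds and Serpinb12. Mt4 (ENSMUSG00000031757), a metallothionein of stratified squamous epithelia, was at 656 and 56.0 CPM at 1 day and 411 and 13.9 at 1 week, log2 ratios of -3.55 (-3.62 to -3.48) and -4.89 (-5.40 to -4.42). Clca3a2, of the calcium-activated chloride channel regulator family, was at 665 and 81.2 and at 990 and 96.9. Hpgds, a prostaglandin D synthase, was at 193 and 17.0 and at 157 and 10.8, and Serpinb12, a clade B serpin, at 151 and 14.5 and at 97.8 and 3.47. Ttk, a mitotic checkpoint kinase, was at 93.8 and 11.2 and at 103 and 3.09. Of 33 listed cell cycle genes only 6 were tested, with 0 called at 1 day and 1, Ccnd2, lower at 1 week. Over all genes tested, 5.96% were higher and 2.14% lower at 1 day, and 8.16% and 8.22% at 1 week. With 6 genes, the counts cannot be told apart from these shares.

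Further genes in this set were low already in control cells. Krt2, a late suprabasal keratin, was at 32.7 and 5.26 at 1 day and 34.6 and 1.16 at 1 week. Cbs, an enzyme of cysteine synthesis, was at 32.6 and 6.04 and at 34.9 and 0.772, Ust, a uronyl sulfotransferase, at 30.6 and 4.58 and at 63.6 and 0.772, and Serpinb3b at 39.1 and 4.09 and at 32.2 and 1.54. At 1 week the ablated values of Krt2, Cbs and Ust rest on 2 or 3 UMIs, so their ratios carry wide intervals, from -7.18 to -3.35 for Krt2. Of the control Krt2 UMIs 20.8% at 1 day and 70.6% at 1 week came from 3 cells, which these intervals do not cover.

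Igfbp3, Dapl1 and Ifi202b were lower at both times. Igfbp3, which binds insulin-like growth factors, was at 335 and 156 CPM at 1 day and at 303 and 1.16 at 1 week, the last from 3 UMIs, a log2 ratio of -8.03 (-10.31 to -6.48). Its level in T cell barcodes of the control 1-week library was 90.3. Dapl1, a gene of early epithelial differentiation, was at 1314 and 316 and at 977 and 21.6, and a Dapl1 UMI was found in 92.6%, 33.4%, 94.0% and 6.21% of members, and in 55.8%, 16.4%, 47.1% and 1.40% at 1000 UMIs a cell. Ifi202b, an interferon-inducible gene, was at 1588 and 594 and at 505 and 12. Among the leading lower genes at 1 week were also 2310050C09Rik, at 241 and 14.7 CPM, and Adh6a, an alcohol dehydrogenase, at 38.2 and 1.16, the last from 3 UMIs. At 1 day Ifi202b (-0.68) and Igfbp3 (-0.85) were within 2-fold in low-Krt1 cells. In basal cells Igfbp3 and Dapl1 were lower as well, with log2 ratios of -1.83 (1 day) and -5.41 (1 week) for Igfbp3 and of -1.16 and -2.23 for Dapl1.

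The promoters of 4 of these genes are shown to place the 2 motifs most tied to this biology, the AP-1 site TGANTCA (the same on both strands) and a p53-family half-site, searched by its name on both strands. They were chosen after the values were seen. Each is RefSeq sequence of build GRCm38.p6, a window of 300 bases that spans the gene start, 5′ to 3′ on the gene's strand, with the motif in capitals. Sprr1a holds AP-1 sites 146 and 116 bases before its start and Sprr2d 193 before, Alox12 holds a half-site 66 before, and Klk7 holds neither.
Sprr1a, chr3:92485832-92486131, minus strand: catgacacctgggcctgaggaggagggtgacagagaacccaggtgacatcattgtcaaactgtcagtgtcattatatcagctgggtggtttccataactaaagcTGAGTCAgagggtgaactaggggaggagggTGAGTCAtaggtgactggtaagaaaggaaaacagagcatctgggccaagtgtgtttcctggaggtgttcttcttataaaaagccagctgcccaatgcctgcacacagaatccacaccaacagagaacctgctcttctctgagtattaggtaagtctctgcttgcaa
Sprr2d, chr3:92338890-92339189, plus strand: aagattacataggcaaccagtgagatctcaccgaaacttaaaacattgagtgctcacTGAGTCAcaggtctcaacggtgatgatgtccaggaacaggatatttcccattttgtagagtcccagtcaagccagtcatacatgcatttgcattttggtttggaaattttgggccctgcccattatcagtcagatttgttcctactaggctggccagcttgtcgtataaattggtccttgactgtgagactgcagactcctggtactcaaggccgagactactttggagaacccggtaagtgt
Klk7, chr7:43811044-43811343, plus strand: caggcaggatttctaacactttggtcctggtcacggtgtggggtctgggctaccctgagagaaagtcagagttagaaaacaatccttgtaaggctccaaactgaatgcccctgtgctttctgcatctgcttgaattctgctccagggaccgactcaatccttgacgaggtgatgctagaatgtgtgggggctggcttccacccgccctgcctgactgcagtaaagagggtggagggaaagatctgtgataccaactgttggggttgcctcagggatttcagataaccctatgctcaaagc
Alox12, chr11:70255321-70255620, minus strand: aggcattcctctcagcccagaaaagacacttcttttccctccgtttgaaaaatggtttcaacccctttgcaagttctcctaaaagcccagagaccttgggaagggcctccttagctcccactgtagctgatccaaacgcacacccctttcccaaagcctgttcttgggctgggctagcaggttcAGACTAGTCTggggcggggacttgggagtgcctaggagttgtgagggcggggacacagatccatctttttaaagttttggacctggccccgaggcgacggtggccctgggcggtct

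The AP-1 motif was present in 28 of 224 promoters (12.5%) of the genes higher at both times, in 4 of 92 (4.35%) of those lower at both, in 5.64% of 4985 promoters of genes tested at both times and in 7.81% of all 32851 promoters. The p53-family half-site was present in 18 (8.04%) and 6 (6.52%) of the same 2 sets, and in 6.66% of the tested and 8.36% of all promoters. Promoters of chromosome 18 were left out of all these sets, so its genes count as unmatched. RefSeq promoters matched 164 of 214 and 67 of 88 genes by symbol. A match describes letters in a window and not binding.

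Set beside basal cells of the same libraries, Klk7 and Slurp1 had basal ratios larger than the spinous ones. Klk7 had basal log2 ratios of 4.38 at 1 day and 7.07 at 1 week, with basal control levels of 39.5 and 3.92 CPM and ablated levels of 821 and 528. Slurp1 had 6.58 and 9.26, from 0.807 to 77.4 and from 0.0637 to 39.1. At 1 day the ablated basal levels lay below those of T cell barcodes of that library, 950 CPM for Klk7 and 82.3 for Slurp1, and at 1 week above them (239 and 18.4). Whether the 1-day basal values are free RNA was not tested. Hbegf had smaller basal ratios, 1.18 and 0.84, against 3.13 and 2.57 in spinous cells, and Epgn had 0.57 and 0.03 against 3.02 and 3.95. The reverse sign was seen for Alox12e, at 0.29 and 1.22 in basal cells against -2.39 and -2.13 in spinous cells. None of these differences between layers was tested.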

How the data were processed

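The authors deposited raw counts: gene UMI matrices made with Cell Ranger 5.0.1 on mm10, per the submitters' processing notes, which also name Seurat. All 4 matrices of 32285 genes were read, and 4 hashtag features were kept out of all totals. UMIs of the members were summed per library and gene, scaled to CPM and compared as the ablated to control ratio, with an exact conditional binomial interval of 95% and exact Poisson intervals for levels. A difference was called past 2-fold with an interval leaving out 0. No test across samples was possible with 1 library per group. Named genes were, per time point, the 12 higher and 12 lower whose interval bound nearest 0 lay farthest from it, the 10 in each direction with the largest smaller ratio at both times, and list members. Members and lists were chosen with earlier results of these data known. Doublets were not removed; Scrublet (scanpy 1.11.5) marked 6.21%, 99.9%, 0.0399% and 0% of barcodes at its automatic threshold, which is not usable, so top-scoring barcodes were left out as an alternative. The calling step was run on simulated Poisson sums, the model its interval assumes. These had no spread between cells or animals, so the run says nothing on UMIs clustered in few cells. Python 3.11.15, numpy 2.4.6, scipy 1.17.1, pandas 2.3.3 and edgeR 4.0.16 (TMM scaling only) were used.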

Additional observations from a re-analysis of the deposited data

Results flagged for a closer look

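The 1-day matrices hold 4 hashtag features (antibody barcodes that label cells of pooled samples) that no comparison above uses. The median member of the control library held 88, 112 and 113 UMIs of hashtags 1, 2 and 3, and the median member of the ablated library 70, 143 and 77. Hashtag 4 was at 0 in both. The labels do not say what a hashtag stands for, so each library was counted as 1 sample.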

How the results depend on the processing

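No paired analysis was possible because each group holds 1 library, and for the same reason no replicate could be left out. The settings by Krt1, Krt17, other-lineage RNA and sex were chosen after seeing the data. The 1-day Trp63 log2 ratio was -2.10 with TMM scaling, -2.16 without mitochondrial and ribosomal protein genes, -2.12 as a mean over cells, -2.17 with the Krt8 and Slpi limits dropped, -2.13 without high-scoring Scrublet barcodes and -1.60 in cells with low Krt1. At 1 week it was -2.67 with high and -1.82 with low Krt1, and -3.06 in males and -2.81 in females. With no filter on low counts, 1327 genes were higher and 512 lower at 1 day and 1138 and 1063 at 1 week. Genes lower at 1 day numbered 175 without mitochondrial and ribosomal protein genes and 193 with low Krt1, and genes higher at 1 week 291 with high Krt1. Leaving out mitochondrial and ribosomal protein genes moved the median of all genes to -0.13 at 1 day and -0.27 at 1 week. The higher share of calls was 59.7% with low Krt1 at 1 day, and 38.1% with high Krt1 and 36.0% in males at 1 week. The 1-day difference in share, -1.33 points, was -2.57 with a higher UMI minimum, -3.77 with a keratin ratio of 5, -2.15 with 50 per 10000, 5.08 without the Krt8 and Slpi limits and 0.281 without the filaggrin limit. The 1-week difference, -7.82 points, was -10.6 with the higher UMI minimum, -6.62 with the ratio of 5, -6.70 without the Krt8 and Slpi limits and -6.47 without the filaggrin limit. Among called genes and list medians over 0.25 from 0, signs changed with low Krt1 at 1 day for the lipid barrier (-0.13) and cholesterol (-0.066) medians, Cnfn (-0.34), Ereg (-0.39), Lor (-0.24), Nccrp1 (-0.37) and Wfdc5 (-0.13). At 1 week they changed with low Krt1 for the cholesterol median (-0.20), Gstp1 (0.010) and Hal (-0.056), with high Krt1 for Cd74 (-4.56), H2-Aa (-3.08), Jag1 (0.10), Srxn1 (-0.18) and Txnrd1 (-0.30), in males for Jag1 (0.12), Sprr2e (-1.76) and Stfa3 (-0.11), and without the filaggrin limit for Calml3 (0.62). By Krt1, keratinocyte list medians nearer 0 crossed it too: with low Krt1 suprabasal early (-0.29 and -0.19), basal adhesion at 1 day (0.11) and oxidative stress at 1 week (0.21), and with high Krt1 at 1 week Notch (0.12) and p53 (-0.07). The causes were not tested. The 177 ablated cells at 1 week limit low genes most, since few cells hold many of their UMIs.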

Other observations

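Over all genes tested in spinous cells, 5.96% were higher at 1 day and 8.16% at 1 week, and 2.14% and 8.22% were lower. Of the glycolysis genes 1 of 15 was higher at 1 day and 0 of 16 at 1 week, and 0 were lower, with medians of 0.07 and 0.41. Of the cholesterol synthesis genes 1 of 19 and 1 of 20 were higher and 0 lower, with medians of 0.42 and 0.29. Of the oxidative stress defence genes 2 of 12 were higher and 2 lower at 1 day, and 4 of 15 were higher and 4 lower at 1 week. Txnrd1 and Srxn1 were among the higher and Gsto1 and Prdx6 among the lower at both times. Of the p53 family and growth arrest genes 0 of 12 were higher and 2 lower at 1 day, and 2 of 12 and 2 at 1 week. Of the interferon and antigen presentation genes 4 of 14 were higher at 1 day and 5 of 17 at 1 week, and 0 were lower. Their medians were -0.13 and 0.77, and the T cell level was exceeded by 0 of these 4 and 3 of these 5. The class II sums described above rested on few cells at 1 week.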
